A study of Homo sapiens with 6 samples.

Results

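Chromatin accessibility was compared at 3 genes that code for subunits of BAF, the mammalian SWI/SNF family of chromatin remodellers: BCL7A, GLTSCR1 (now BICRA) and DPF3. Their regions were chosen by the name of the nearest gene in the deposited tables, which gave 4 of 591 regions, 2 of 323 in the table for DMSO and 2 of 268 in the table for ATRA. BCL7A had 1 region in each table, GLTSCR1 had 1 in DMSO and DPF3 had 1 in ATRA. The tables hold only regions with an unadjusted p under 0.005 for knockdown against control in the authors' test, so every difference between knockdown and control below is among the values that selected the regions. These differences are given as a description, with no test.

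NB4 is an established line from human acute promyelocytic leukaemia. It carries the PML-RARA fusion and matures into granulocyte-like cells when given all-trans retinoic acid (ATRA). The assay was ATAC-seq: a transposase, Tn5, cuts and tags open DNA, so that more reads in an interval mean more insertions there. In DMSO, labelled undifferentiated, there were 1 control library, 1 library of SMARCD2 knockdown with shRNA1 and 1 with shRNA2, each from 50000 cells. In 1 µM ATRA, labelled differentiated, there was the same set of 3. The control is labelled CTRL, and scr in its column names, which the labels do not spell out. They say neither how long ATRA was given, nor whether the hairpin lines were clones, nor how they were cultured. The knockdown libraries of a treatment carry different hairpins. The spread between them may thus be technical or come from differences between the hairpins, which cannot be told apart. SMARCD2 had no listed region, and neither the knockdown nor the identity of the line was checked here.

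BAF complexes use the energy of ATP, through SMARCA4 or SMARCA2, to slide or evict nucleosomes and so open DNA to transcription factors. Shared core subunits, among them a SMARCD protein, are joined by subunits that define the canonical, polybromo and noncanonical forms. SMARCD2 is the SMARCD member known for its role in neutrophil granule formation. BCL7A belongs to a family of small subunits that sit with the ATPase module. GLTSCR1, or its paralogue GLTSCR1L, marks the noncanonical form together with BRD9. DPF3 carries paired PHD fingers that bind modified histone tails and is known mainly from heart and skeletal muscle.

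Effective library sizes, recovered from the authors' mean log2 CPM, were 13825314 reads for shRNA1, 14638521 for shRNA2 and 11496952 for the control in DMSO. In ATRA they were 17605128, 17292975 and 14373161 reads in the same order. Levels below are CPM, the reads of a region scaled to these sizes. Over the 3 libraries of a treatment, the member regions held 55 reads (GLTSCR1) and 102 (BCL7A) in DMSO, where the median listed region held 37, and 20 (BCL7A) and 35 (DPF3) in ATRA, where the median was 33. Intervals are 95% exact intervals and cover counting error only.

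In DMSO both member regions were less accessible with each hairpin than in the control. The listed regions were lower in the knockdown in 34.1% of cases (110 of 323) and higher in 65.9%, on the library size scale and on that of the deposited normalized counts alike, so 2 lower regions of 2 is a count from which nothing is read. Both hairpins lay on 1 side of the control in 100% of the listed DMSO regions.

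GLTSCR1 had a region of 115 bp inside the gene (GRCh37.p13, chromosome 19, 48167228 to 48167342, gene on the plus strand). It held 35 reads in the control, 12 with shRNA1 and 8 with shRNA2. Scaled to library size these are 3.04 CPM in the control, 0.868 with shRNA1 and 0.547 with shRNA2, a knockdown mean of 0.707 ± 0.227 CPM (SD, n = 2). Both knockdown libraries were low and the control was high, with no overlap. In a bulk library, a less open region in every cell and fewer cells with the region open cannot be told apart. At the knockdown level the control library would have held 8.08 reads in place of 35. The summed knockdown reads were 4.33-fold lower than the control (2.43 to 7.92), 3.51-fold with shRNA1 alone (1.78 to 7.42) and 5.57-fold with shRNA2 alone (2.54 to 13.9). The authors' deposited table gives a log2 fold change of -2.10 and an unadjusted p of 0.000238, which ranks 22 of 323. By size of log2 fold change it ranks 41 of the 110 lower regions.

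BCL7A had a region of 193 bp inside the gene in DMSO (chromosome 12, 122492318 to 122492510, plus strand), the widest and best covered of the 4. The control held 52 reads, shRNA1 held 20 and shRNA2 held 30. The levels were 4.52 CPM in the control against 1.45 and 2.05 with the hairpins, a knockdown mean of 1.75 ± 0.426 CPM (SD, n = 2). The control again stood above both hairpins. At the knockdown level the control would have held 20.2 reads in place of 52. The knockdown was 2.57-fold lower (1.71 to 3.87), 3.13-fold with shRNA1 (1.83 to 5.53) and 2.21-fold with shRNA2 (1.38 to 3.58). The authors' deposited table gives a log2 fold change of -1.36 and an unadjusted p of 0.00152, which ranks 116 of 323. By size of log2 fold change the region ranks 63 of the 110 lower ones.

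**Figure D1:**
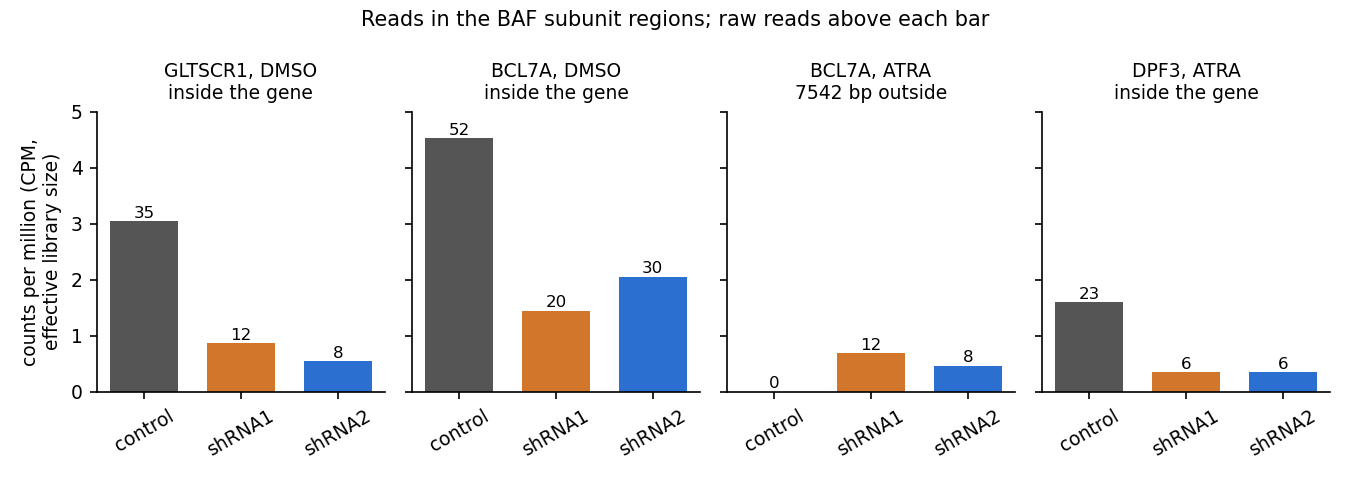
CPM on effective library size (bars) in the control, shRNA1 and shRNA2 library for each of the 4 regions, with raw reads above the bars and 1 library per bar. The control bar is the tallest in 3 regions and is at 0 in the BCL7A region of the ATRA table.

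The order of the DMSO regions depends on what is compared. Per length, the control level was 26.5 CPM per kb at GLTSCR1 and 23.4 at BCL7A, so these levels were close although BCL7A held more reads. With shRNA1 and shRNA2 the levels were 7.55 and 4.75 CPM per kb at GLTSCR1 and 7.50 and 10.6 at BCL7A. The hairpins took opposite orders in the 2 regions: shRNA2 had the lower level at GLTSCR1 and shRNA1 at BCL7A. Neither order exceeded counting error. shRNA1 gave 60% of the knockdown reads at GLTSCR1 (36.1% to 80.9%) and 40% at BCL7A (26.4% to 54.8%), against a share of 48.6% in library size. By the authors' mean log2 CPM, which counts all 3 libraries, GLTSCR1 ranked 113 and BCL7A 73 of the 323 listed regions.

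In ATRA the member regions went in opposite directions, BCL7A higher and DPF3 lower in the knockdown. Of the listed ATRA regions 79.1% were higher and 20.9% lower on the library size scale, and both hairpins lay on 1 side of the control in 100% of them. On the scale of the deposited normalized counts 69.4% were higher and 30.6% lower, and 93.7% had both hairpins on 1 side.

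DPF3 had a region of 127 bp inside the gene (chromosome 14, 73166598 to 73166724, minus strand). It held 23 reads in the control and 6 with each hairpin. The levels were 1.60 CPM in the control, 0.341 with shRNA1 and 0.347 with shRNA2, a knockdown mean of 0.344 ± 0.00435 CPM (SD, n = 2). The hairpins were nearly equal, but 6 reads each carry a far wider counting error than this SD: shRNA1 gave 50% of the knockdown reads with an interval of 21.1% to 78.9%. At the knockdown level the control would have held 4.94 reads. The knockdown was 4.65-fold lower (2.22 to 10.3), 4.70-fold with shRNA1 (1.86 to 14.1) and 4.61-fold with shRNA2 (1.83 to 13.8). On the normalized count scale it was 9.34-fold lower (4.46 to 20.6). The authors' deposited table gives a log2 fold change of -2.19 and an unadjusted p of 0.00269, which ranks 173 of 268. By size of log2 fold change it ranks 26 of the 56 lower regions.

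The BCL7A region of the ATRA table was 122 bp wide and lay outside the gene, 7542 bp from it (chromosome 12, 122452197 to 122452318). It held 0 reads in the control, 12 with shRNA1 and 8 with shRNA2, which are 0.682 and 0.463 CPM, a knockdown mean of 0.572 ± 0.155 CPM (SD, n = 2). If 3 reads are taken for the control's 0, its level is 0.209 CPM. Both hairpins were above this, with the counting error of their own reads left out. At the knockdown level the control would have held 8.24 reads. Taking 3 reads for the control, the knockdown was 2.75-fold higher, a value that leaves out the counting error of the knockdown reads. The exact lower limit, which includes it, was 2.03. Against 3 control reads, shRNA1 alone was 3.27-fold higher (lower limit 2.27) and shRNA2 alone 2.22-fold (lower limit 1.42). On the normalized count scale the value against 3 reads was 1.37-fold with a lower limit of 1.01. For shRNA2 alone that lower limit was 0.666, an interval that includes a ratio of 1.

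The authors' deposited table gives this region a log2 fold change of 6.25, a value that rests on the small count added to the control's 0 and is no measure of size. Its unadjusted p was 0.00209, which ranks 130 of 268, and its mean log2 CPM of -0.94 ranks 243 of 268. A control count of 0 was shared by 37.7% of the listed ATRA regions (101 of 268). The lowest mean log2 CPM among the listed ATRA regions was -0.997. With 0 control reads, the BCL7A region reached the listed range through its knockdown reads alone, so it could be listed only as higher.

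**Figure D2:**
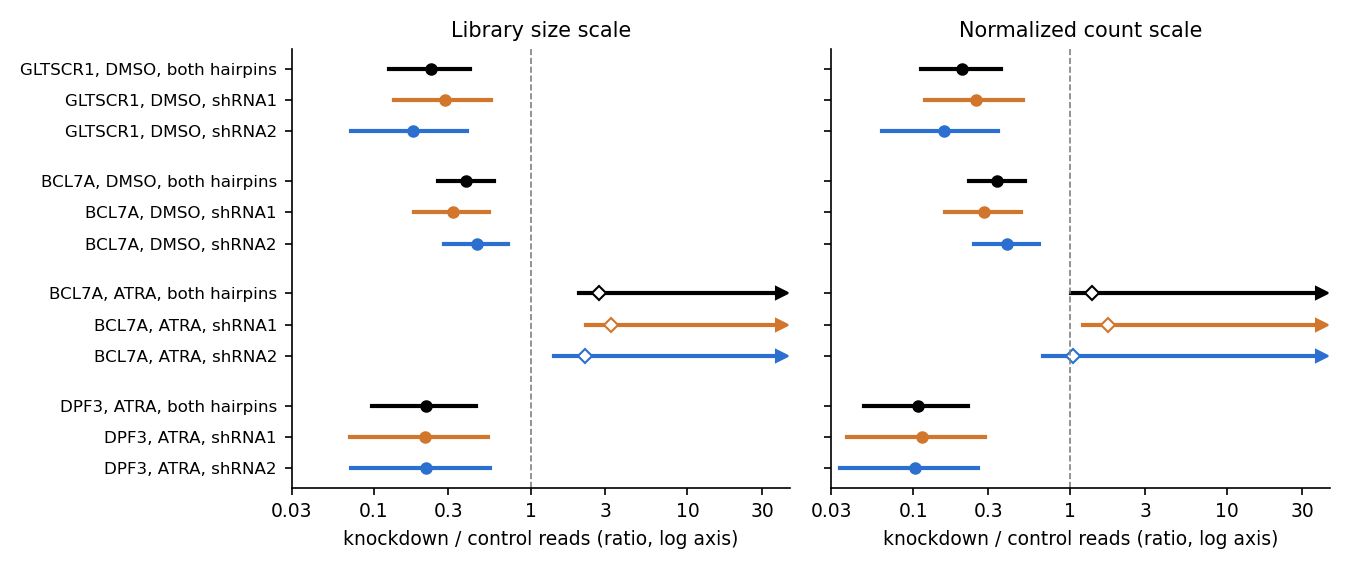
Ratio of knockdown to control reads (log axis) for both hairpins summed and for each alone, on the library size scale (left) and the normalized count scale (right). Dots are ratios, lines 95% exact intervals, open diamonds the ratios against 3 control reads and arrows intervals with no upper end. The 3 lower regions stay left of 1 on both scales, while the interval of BCL7A in ATRA reaches 1.01 for both hairpins and 0.666 for shRNA2 on the normalized count scale.

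The 2 scales differ by 1 factor per library. With the hairpins summed, a ratio of knockdown to control is 0.18 log2 units lower on the normalized count scale in DMSO and 1.01 lower in ATRA. In ATRA the ratio is 0.92 lower for shRNA1 and 1.09 lower for shRNA2. The divisors behind the deposited normalized counts matched median-of-ratios size factors computed from the listed regions alone, over the 202 DMSO and 163 ATRA regions with a read in every library, within 0.00126%. The normalized count scale is therefore centred on regions that were selected by p, while the library size scale uses the sizes behind the authors' mean log2 CPM and fold changes. On the normalized count scale DPF3 held 4.76 and 4.29 in the knockdown against 42.1, and BCL7A in ATRA held 9.51 and 5.71 against 0.

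Both BCL7A regions can be placed relative to each other. The ATRA region lies at the lower coordinate, the DMSO region lies inside the gene, and the gene is on the plus strand, so the ATRA region is upstream of BCL7A and 39999 bases separate the regions. If the deposited distance counts the bases in between, the DMSO region starts 32457 bp into the gene from that near edge. The region upstream was listed in ATRA alone and the region inside in DMSO alone. Reads at either place in the treatment that does not list it were not analysed here, so the data do not show whether the treatments differ at either place.

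**Figure D3:**
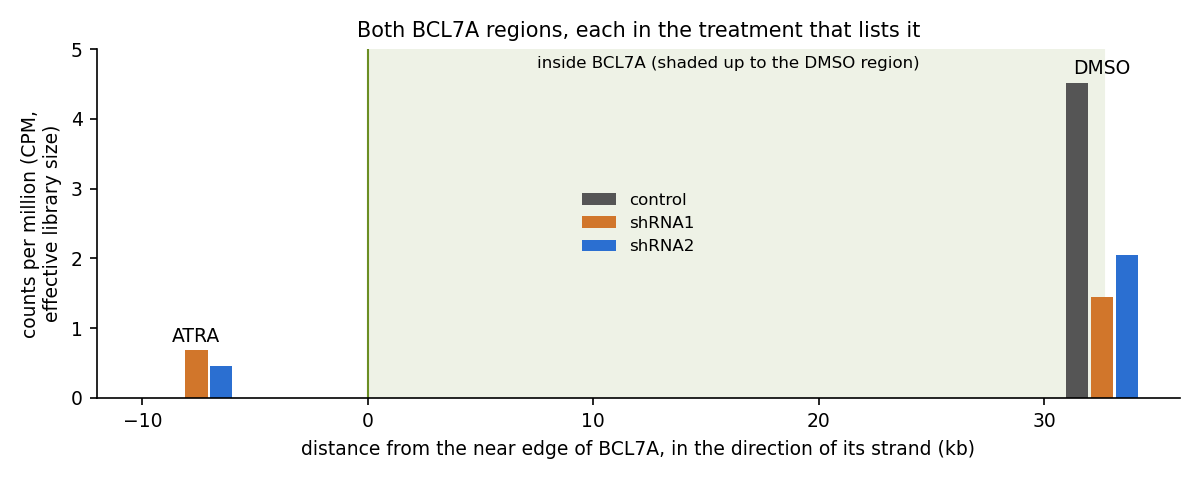
CPM (bars, 1 library each) at the 2 BCL7A regions, against distance in kb from the near edge of the gene along its strand. Bars are drawn wider than the regions (122 and 193 bp). The upstream region has 0 reads in the ATRA control and the region inside the gene has its highest level, 4.52 CPM, in the DMSO control.

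What the 4 regions share beyond their genes' function is little. Inside a gene lay 3 of them, as did 77.1% of all listed regions in DMSO and 81.3% in ATRA. Widths of 115, 122 and 127 bp were below the table medians of 141 bp (DMSO) and 149 bp (ATRA), and that of 193 bp was above. No member region overlapped a region of the other table, as was the case for all but 2 of the 323 DMSO and 2 of the 268 ATRA regions. The nearest other listed region was 204893 bp away for GLTSCR1 (at SULT2A1, a sulfotransferase gene) and 1890493 bp for DPF3 (at MAP3K9, a kinase gene), both in the ATRA table. Whether the regions inside genes are exonic or intronic was not determined, since no annotation or sequence of GRCh37 was used here.

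**Figure D4:**
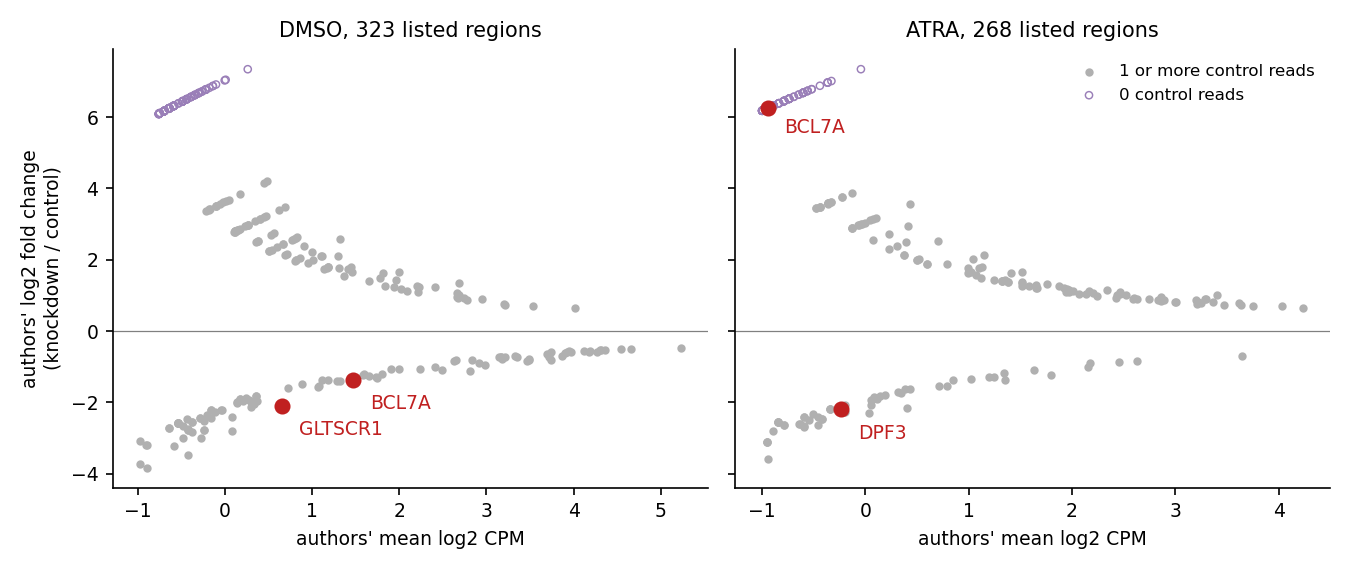
Authors' log2 fold change (knockdown over control) against the authors' mean log2 CPM for all 323 DMSO and 268 ATRA regions, with the 4 member regions in red and regions with 0 control reads as open circles. GLTSCR1 (-2.10), BCL7A in DMSO (-1.36) and DPF3 (-2.19) lie among the lower regions, and BCL7A in ATRA lies on the band of regions with 0 control reads.

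Other regions of the tables had nearly the reads of the members. Likeness was measured as the distance between log2(10 × CPM + 1) over the 3 libraries of a treatment, and the 3 nearest regions are named. Nearest to GLTSCR1 were ALG14 (10 and 8 reads with the hairpins against 26), MGST1 (16 and 10 against 32) and LRRC4B (9 and 8 against 27). Nearest to BCL7A in DMSO were ALX4 (20 and 38 against 54), GLIS3 (16 and 28 against 47) and NOL3 (15 and 28 against 46). Nearest to BCL7A in ATRA were CLCN4 and CFDP1, each with exactly the same 12, 8 and 0 reads, and SLC24A2 (13 and 8 against 0). Nearest to DPF3 were ASTN1 (7 and 6 against 23), NEIL2 (6 and 5 against 21) and KCNJ5 (7 and 5 against 24). The read pattern of each member was thus met at regions of genes outside the BAF list.

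Of 31 BAF subunit genes, 3 were listed, and the other 28 had no region in either table, among them the ATPase genes SMARCA4 and SMARCA2, the SMARCD2 paralogues SMARCD1 and SMARCD3, and BRD9, the partner of GLTSCR1. The 3 genes are 9.68% of this list, and a region was listed for 2.84% of all protein-coding genes of RefSeq (569 of 20052, matched by symbol or synonym). The list was made with these 3 genes known, and the shares are not adjusted for gene length, so nothing is read from the difference. Beside them, 3 of 44 genes of other ATP-dependent remodellers were listed, all in DMSO. CHD1, a chromodomain remodeller, was 2.35-fold lower in a region 2019 bp away (1.59 to 3.46) and RBBP4, a histone chaperone of several complexes, 1.50-fold lower (1.26 to 1.78). INO80C, a subunit of the INO80 complex, was 4.85-fold higher (1.77 to 18.5). Of 32 Polycomb genes 2 were listed. BCOR, a corepressor, was 11.7-fold higher in DMSO from 15 and 14 reads against 1 (1.94 to 478), and KDM2B, a histone demethylase, was 6.07-fold lower in ATRA from 4 and 2 reads against 15 (2.23 to 19.1). A gene without a listed region may have accessible regions that missed the p limit, fell below the lowest listed mean log2 CPM or lie farther than 10 kb away. Those were not analysed here.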

How the data were processed

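ATAC-seq libraries of NB4 cells were grouped by title. The description of the DMSO control names ATRA, and its title was followed. The submitters' processing notes name the build GRCh37.p13 and the tools MACS2, STAR, edgeR, Picard (2.5.0) and bcl2fastq. Settings, Tn5 offset and duplicate handling: not given in the sources used here. Per the file headers, the authors deposited raw read counts, normalized counts (a signal), log2 fold changes, mean log2 CPM, an F score and an unadjusted p-value per region. The tables reach p of 0.00499 in DMSO and 0.00498 in ATRA and 9992 bp from a gene. Their lowest mean log2 CPM was -0.974 in DMSO and -0.997 in ATRA. 

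Effective library sizes were recovered by least squares from the deposited mean log2 CPM and raw counts (scipy 1.17.1). A dispersion (spread beyond counting error) was fitted with them, and the largest residual of this fit was 5.93e-10 in log2 CPM. With a separate dispersion fitted to the deposited log2 fold changes, the same sizes gave these back within 0.00404. Recovery was tested on simulated data made with edgeR 4.0.16. The strand column matched the nearest gene's RefSeq strand (GRCh38.p14) in 253 of 253 DMSO and 207 of 208 ATRA regions that matched by symbol.

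Ratios are summed knockdown reads over control reads, scaled by library size, with exact Clopper-Pearson intervals. No test was run, because the tables were selected by p of the same contrast. With 1 control per treatment, the spread between controls is not measured. Members and gene lists were chosen with earlier results of these data known. All member regions are named, then the 3 nearest to each by reads, then listed regions of the lists. Alternatives were 2 other scales, each hairpin alone and the unweighted hairpin mean.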

Additional observations from a re-analysis of the deposited data

Results flagged for a closer look

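BCL7A had regions that went opposite ways in the 2 treatments. Both directions are among the values that selected the regions, and the ATRA region, with 0 control reads, could be listed only as higher. On the library size scale 34.1% of the listed DMSO regions were lower and 79.1% of the listed ATRA regions were higher. Both hairpins lay on 1 side of the control in 100% of the listed regions of each treatment on that scale. In DMSO the region inside the gene was 2.57-fold lower in the knockdown, with both hairpins under the control. In ATRA the region 7542 bp upstream was 2.75-fold higher when 3 reads were taken for the control (exact lower limit 2.03). Both hairpins were above a control of 0 reads. On the normalized count scale that value was 1.37-fold with a lower limit of 1.01, or a lower limit of 0.666 with shRNA2 alone. These are different places, and the difference between the treatments was not tested. Of 11 genes with a region in both tables, 3 went opposite ways (BCL7A, IRS1 and MLPH, the last 2 named after their values were seen), and BCL7A was the 1 that was lower in DMSO and higher in ATRA.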

How the results depend on the processing

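The 4 ratios of knockdown to control were recomputed under 5 alternatives each. The regions were selected by p of the same contrast. The normalized count scale lowers every ratio, so the lower member regions could not reverse there. Among all listed ATRA regions, the lower share was 20.9% on the library size scale and 30.6% on the normalized count scale. With libraries of like size, leaving out 1 of 2 hairpins moves a ratio by less than the spread between them by construction. An unchanged direction and such small moves are therefore no sign of stability. In ATRA 4 of the 20 values moved by more than the spread between the hairpins. On the normalized count scale the BCL7A ratio against 3 control reads was 1.37 in place of 2.75. The ratio for DPF3 was 0.107 in place of 0.215, and on the median-of-ratios scale the values were 1.37 and 0.107. The last 2 scales are the same up to rounding, so they are 1 alternative. With 1 hairpin left out the ratios were 0.180 to 0.285 (GLTSCR1), 0.320 to 0.453 (BCL7A in DMSO), 2.22 to 3.27 (BCL7A in ATRA, against 3 control reads) and 0.213 to 0.217 (DPF3). The control could not be left out, since each treatment has 1. No paired analysis was possible because each treatment has 1 control library and no test was run. The motif search, with flanks of 100 bases, and the distance to annotated gene starts were not run, since no sequence or annotation of the build was used here. Depth limits DPF3 and BCL7A in ATRA most, with 35 and 20 reads in all.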

Other observations

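Genes with names like those of BAF subunits but outside the list were also present in DMSO, and both were named after their values were seen. Of the listed DMSO regions 65.9% were higher in the knockdown. SMARCAL1 codes for a DNA annealing helicase of replication fork repair and is no BAF subunit. It had a region 3817 bp away where shRNA1 gave 7 reads, shRNA2 gave 13 and the control gave 0. Against 3 control reads the knockdown was 2.69-fold higher (exact lower limit 1.99). ARID5A, which codes for an RNA-binding protein with an ARID domain, had a region 1801 bp away with 19 and 29 reads against 2, 9.69-fold higher (2.54 to 82.3).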
